A study of Mus musculus with 12 samples.

Results

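The genes described here encode digestive hydrolases of the brush border, the carpet of microvilli on absorptive epithelium, together with the secreted enzyme Pm20d1. They comprise the disaccharidases Lct, Mgam, Treh and Sis and the peptidases Dpp4, Anpep, Enpep, Mep1a, Mep1b and Pm20d1. They were chosen by symbol, and each was read from its brightest probe set, taking the average of all 12 arrays. Of the 10 genes listed 9 were measured, by 14 probe sets, among 18193 genes with a probe set of a single gene. Sis, the sucrase-isomaltase gene, was not analysed here, so 3 of 4 disaccharidases and 6 of 6 peptidases remain. The list was proposed with results of these arrays known, and its counts at 5 days are therefore a description that supports nothing by itself.

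The samples were mouse BMEL cells, bipotential embryonic liver lines able to yield cells of the hepatocyte or of the bile duct kind. Lines 9A1 and 14B3 were isolated independently from day 14 embryonic liver of a CBA/J x C57Bl/6J cross, so each line stands for a single isolate. Each line was grown in basal culture, as aggregates for 1 day or as aggregates for 5 days, with 2 biological replicates of each of the 6 combinations and no other agent or allele named. Total RNA was hybridised to Affymetrix mouse 430 2.0 arrays, and all levels below are log2 values, on which a difference of 1 is a doubling. The study sought surface markers of liver progenitors, and several of these enzymes are surface antigens.

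In small intestine and kidney proximal tubule the enzymes other than Pm20d1 are anchored in or bound to the apical membrane, where they complete the digestion of sugars and peptides for the transporters beside them. Lactase (Lct) splits milk sugar, maltase-glucoamylase (Mgam) splits starch fragments and trehalase (Treh) splits trehalose. Dipeptidyl peptidase 4 (Dpp4, the surface antigen CD26), aminopeptidase N (Anpep, CD13) and aminopeptidase A (Enpep) trim peptides from the amino end, and Mep1a and Mep1b encode the subunits of meprin, which cuts within proteins. Pm20d1 differs from the others by textbook role: it encodes a secreted enzyme that joins or splits fatty acids and amino acids, and it is not a classical brush border protein. In liver, Dpp4 and Anpep are known on the bile canaliculus, whereas lactase is known as an enzyme of the small intestine. The caudal factor Cdx2 and GATA and HNF4 family factors are known regulators of intestinal hydrolase genes.

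The promoter windows of 5 of these genes are shown because the genes rose at 5 days while their differences between the lines at 5 days ran from 2.34 (Mgam) to 6.86 (Enpep). Each window is the 150 bases before the RefSeq start on GRCm38.p6, 5′ to 3′ on the strand of the gene, and capitals mark a match on either strand to the caudal core TTTATG, the GATA core AGATAA or the HNF4 core CAAAGT. The windows lie at chr1:128328319-128328468 on the minus strand (Lct), chr6:40628681-40628830 on the plus strand (Mgam), chr2:62412232-62412381 on the minus strand (Dpp4), chr17:43502774-43502923 on the minus strand (Mep1a) and chr3:129332750-129332899 on the minus strand (Enpep).

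Lct: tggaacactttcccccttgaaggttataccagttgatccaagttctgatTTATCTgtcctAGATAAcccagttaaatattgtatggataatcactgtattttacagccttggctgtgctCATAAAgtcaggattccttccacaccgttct
Mgam: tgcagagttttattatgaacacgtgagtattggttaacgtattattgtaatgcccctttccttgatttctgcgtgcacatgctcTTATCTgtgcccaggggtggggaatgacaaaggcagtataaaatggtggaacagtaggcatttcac
Dpp4: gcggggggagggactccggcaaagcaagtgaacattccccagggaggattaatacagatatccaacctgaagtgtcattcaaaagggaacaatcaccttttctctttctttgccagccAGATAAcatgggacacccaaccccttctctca
Mep1a: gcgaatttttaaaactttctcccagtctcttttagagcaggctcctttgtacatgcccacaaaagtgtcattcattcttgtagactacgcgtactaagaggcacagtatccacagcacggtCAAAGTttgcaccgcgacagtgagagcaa
Enpep: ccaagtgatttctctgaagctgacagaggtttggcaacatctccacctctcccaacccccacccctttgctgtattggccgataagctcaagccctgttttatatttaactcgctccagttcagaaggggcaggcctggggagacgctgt

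The table held a window for 7 of the 9 measured genes that could be used, and the motifs were picked after the array values were seen. The Lct window held the caudal core on the minus strand 31 to 26 bases before the start and 2 GATA cores, at 101 to 96 and 90 to 85 bases before it. Mgam held a GATA core 66 to 61 bases before the start and Dpp4 held a GATA core 32 to 27 bases before it. Mep1a held an HNF4 core 29 to 24 bases before its start and Treh held an HNF4 core 68 to 63 bases before its own, while the Enpep and Anpep windows held none of these letters. Over the windows of the same length at 32851 RefSeq starts, the caudal core was present in 6.3%, the GATA core in 5.6% and the HNF4 core in 7.0%, against 1, 3 and 2 of the 7 windows. The starts used for Dpp4 and Mep1a lie inside the annotated gene. These matches describe letters and carry no statement on binding.

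Before the results, 2 of the 12 arrays have to be set apart. Xist, transcribed from the inactive X chromosome, lay between 11.6 and 12.6 on the 6 arrays of 14B3 and between 6.30 and 6.69 on 4 arrays of 9A1, but at 12.1 on the array labelled basal 9A1 replicate 1 and at 12.2 on the array labelled day 1 9A1 replicate 2. The Y-linked gene Eif2s3y lay between 9.81 and 10.5 on the same 4 arrays of 9A1, at 3.88 and 3.75 on these 2 arrays and between 3.46 and 4.06 on the 14B3 arrays. Uty (4.46 and 4.81, against 7.11 to 8.37 on the other 9A1 arrays) and Kdm5d (3.80 and 4.24, against 9.04 to 9.53) showed the same split. These 4 genes were chosen after the arrays were seen. Both arrays thus go against their line label at these genes; they keep their labels here, and results are given with all 12 arrays and with the other 10. With 10 arrays the basal and 1 day groups of 9A1 hold 1 array each, which is assumed to vary like the other groups. The array labelled basal 9A1 replicate 1 also stood apart within basal culture: it exceeded the highest other basal array by over 0.5 for 8 of the 9 genes, all but Pm20d1, against 11.2% of all 15781 genes tested. Its mean over 8 enterocyte markers was 11.96, while the remaining basal arrays spanned 8.06 to 8.61 and the 5 day arrays 12.38 to 12.60, and its mean over 7 hepatocyte markers was 10.86, against 6.73 to 7.41 and 10.89 to 12.24. The part of these differences in the results was not tested.

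All 9 genes were higher at 5 days than in basal culture, averaged over both lines, by 2.68 to 5.36 with a median of 4.42. The median over all genes tested was 0.01. By limma with Benjamini-Hochberg adjustment over all tested genes, 9 of 9 passed upward at an adjusted p under 0.05, and 16.9% of all genes did. All 9 also passed this test with 10 arrays, where 24.6% of all genes did. In each line, both 5 day arrays lay above that line's 4 other arrays for 9 of 9 genes, against 12.6% of all genes. All 4 arrays at 5 days lay above all 8 others for 6 genes (10.5% of all genes): Lct, Mgam, Treh, Anpep, Mep1a and Mep1b. Dpp4 joined them without the 2 arrays set apart (7 of 9, against 14.4%), while for Enpep and Pm20d1 the 5 day arrays of 14B3 overlapped with earlier arrays of 9A1. In RNA from whole cultures, fewer cells of a type and less RNA per cell cannot be told apart. The lower quartile of all values lay between 4.79 and 5.00 on the 12 arrays, so genes that start near 5 are close to the background of the array and their fold changes are limited by it.

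**Figure D1:**
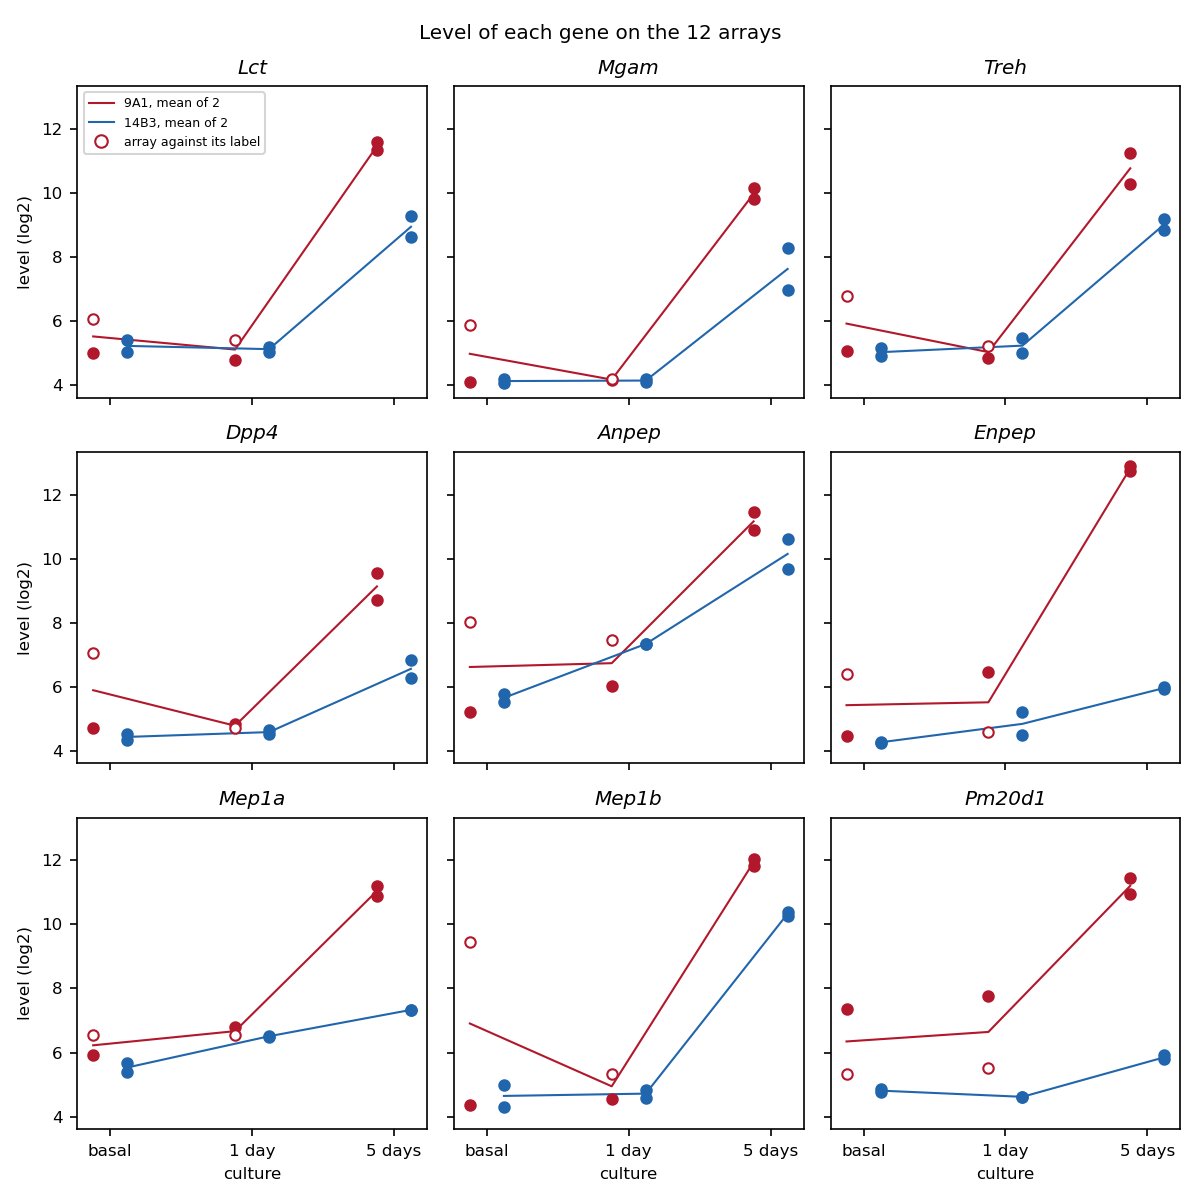
Level of each of the 9 genes (log2, vertical axis) in basal culture, after 1 day and after 5 days as aggregates (horizontal axis). Points are the 12 arrays, 9A1 in red and 14B3 in blue, lines join the means of the 2 replicates, and open points are the 2 arrays that go against their line label. In each line, both 5 day arrays lie above its 4 earlier arrays for all 9 genes, and both 9A1 arrays lie above both 14B3 arrays at 5 days.

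Leaving aside the array labelled basal 9A1 replicate 1, the disaccharidases were near the low end of the array in both earlier cultures. Lct (chromosome 1, 128284756 to 128328318) lay at 6.05 and 4.99 in basal 9A1, 5.41 and 5.03 in basal 14B3, 4.80 and 5.42 in 9A1 at 1 day, 5.04 and 5.20 in 14B3 at 1 day, 11.58 and 11.32 in 9A1 at 5 days and 9.26 and 8.62 in 14B3 at 5 days. The 5 day arrays did not overlap with any other, and those of 9A1 lay above those of 14B3. The difference from basal culture was 4.83 ± 0.27 (SE), a 28.4-fold rise (adjusted p = 2.84e-05), and 5.09 ± 0.19 with 10 arrays. Within the lines it was 5.94 in 9A1 and 3.72 in 14B3.

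Mgam (chromosome 6, 40628831 to 40769123) lay at 5.86 and 4.09 in basal 9A1, 4.05 and 4.19 in basal 14B3, 4.15 and 4.19 in 9A1 at 1 day, 4.17 and 4.11 in 14B3 at 1 day, 10.14 and 9.80 in 9A1 at 5 days and 8.29 and 6.96 in 14B3 at 5 days. Apart from the array labelled basal 9A1 replicate 1, its earlier arrays lay between 4.05 and 4.19. The difference at 5 days was 4.25 ± 0.38, or 4.69 ± 0.29 with 10 arrays. Treh (chromosome 9, 44673233 to 44686305) lay at 6.78 and 5.05 in basal 9A1, 4.90 and 5.15 in basal 14B3, 4.85 and 5.21 in 9A1 at 1 day, 4.99 and 5.47 in 14B3 at 1 day, 10.28 and 11.25 in 9A1 at 5 days and 9.18 and 8.85 in 14B3 at 5 days. Its rise was 4.42 ± 0.37, or 4.85 ± 0.25 with 10 arrays, and its 4 arrays at 5 days stood clear of the rest. All 3 disaccharidases thus moved between 1 and 5 days, by 5.08 (Lct), 4.64 (Mgam) and 4.76 (Treh), and none of them passed the test for the first day.

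Among the aminopeptidases and Dpp4, the difference between the lines at 5 days ran from 1.02 (Anpep) to 6.86 (Enpep). Anpep (chromosome 7, 79821803 to 79848210) lay at 8.01 and 5.23 in basal 9A1, 5.78 and 5.53 in basal 14B3, 6.01 and 7.46 in 9A1 at 1 day, 7.34 and 7.33 in 14B3 at 1 day, 10.88 and 11.45 in 9A1 at 5 days and 9.69 and 10.60 in 14B3 at 5 days. Both 1 day arrays of 14B3 lay above both of its basal arrays, with a difference of 1.68, and a further 2.81 followed by 5 days. Averaged over the lines the rise from basal to 5 days was 4.52 ± 0.56, or 5.21 ± 0.23 with 10 arrays. Within the lines it was 4.55 in 9A1 and 4.49 in 14B3 with all arrays, where basal 9A1 includes the array set apart (8.01). The rise in 9A1 exceeded that in 14B3 by 0.055 with all arrays and by 1.445 with 10 arrays. The value with 10 arrays rests on 1 basal array of 9A1 (5.23).

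Dpp4 (chromosome 2, 62330073 to 62412315) lay at 7.06 and 4.73 in basal 9A1, 4.35 and 4.52 in basal 14B3, 4.84 and 4.73 in 9A1 at 1 day, 4.64 and 4.53 in 14B3 at 1 day, 8.72 and 9.54 in 9A1 at 5 days and 6.85 and 6.27 in 14B3 at 5 days. The array labelled basal 9A1 replicate 1 lay above both 5 day arrays of 14B3, and the other 7 earlier arrays lay below them. The rise from basal culture was 2.68 ± 0.43, a 6.42-fold change, or 3.27 ± 0.22 with 10 arrays. Dpp4 had 4 probe sets, and the other 3 rose by less, by 0.62, 0.88 and 1.61, so the size of its change depends on the probe set. The probe set with the largest of these lay at 6.46 and 6.93 in 9A1 and at 4.47 and 4.13 in 14B3 at 5 days.

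Enpep (chromosome 3, 129269177 to 129332749), which also clips angiotensin II, lay at 6.39 and 4.46 in basal 9A1, 4.28 and 4.25 in basal 14B3, 6.46 and 4.58 in 9A1 at 1 day, 5.20 and 4.48 in 14B3 at 1 day, 12.75 and 12.89 in 9A1 at 5 days and 5.99 and 5.94 in 14B3 at 5 days. The 9A1 arrays at 5 days lay far above all others, and those of 14B3 overlapped with the earlier arrays of 9A1. The average rise of 4.55 ± 0.48 therefore joins unequal parts, 7.39 in 9A1 and 1.70 in 14B3. With 10 arrays the average was 5.03 ± 0.18.

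Both meprin subunits rose at 5 days, with a Pearson r of 0.809 between them over the 12 arrays. Mep1a (chromosome 17, 43474324 to 43504143) lay at 6.54 and 5.92 in basal 9A1, 5.68 and 5.38 in basal 14B3, 6.78 and 6.55 in 9A1 at 1 day, 6.50 and 6.52 in 14B3 at 1 day, 10.89 and 11.20 in 9A1 at 5 days and 7.33 and 7.34 in 14B3 at 5 days. Its rise from basal culture was 4.82 in 9A1 and 1.80 in 14B3, 3.31 ± 0.17 on average (3.46 ± 0.13 with 10 arrays), and its other probe set gave 5.48 and 1.05. Mep1b lay at 9.46 and 4.36 in basal 9A1, 4.98 and 4.31 in basal 14B3, 4.56 and 5.33 in 9A1 at 1 day, 4.59 and 4.84 in 14B3 at 1 day, 11.83 and 12.05 in 9A1 at 5 days and 10.39 and 10.28 in 14B3 at 5 days. The basal 9A1 arrays of Mep1b were thus far apart, at 9.46 and 4.36. Its rise of 5.36 ± 0.87 (41.1-fold) became 6.64 ± 0.18 (99.4-fold) with 10 arrays and 4.09 without basal 9A1 replicate 2 alone.

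Pm20d1 (chromosome 1, 131797385 to 131821472) lay at 5.34 and 7.35 in basal 9A1, 4.77 and 4.85 in basal 14B3, 7.76 and 5.53 in 9A1 at 1 day, 4.62 and 4.62 in 14B3 at 1 day, 10.96 and 11.45 in 9A1 at 5 days and 5.79 and 5.91 in 14B3 at 5 days. Its earlier 9A1 arrays split as the label check does: the pair set apart lay at 5.34 and 5.53 and the other pair at 7.35 and 7.76. Its second probe set split likewise, at 4.33 and 3.89 against 7.38 and 7.63. The rise was 2.95 ± 0.52 with 12 arrays and 2.45 ± 0.14 with 10, made of 4.86 in 9A1 and 1.04 in 14B3 with all arrays.

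**Figure D2:**
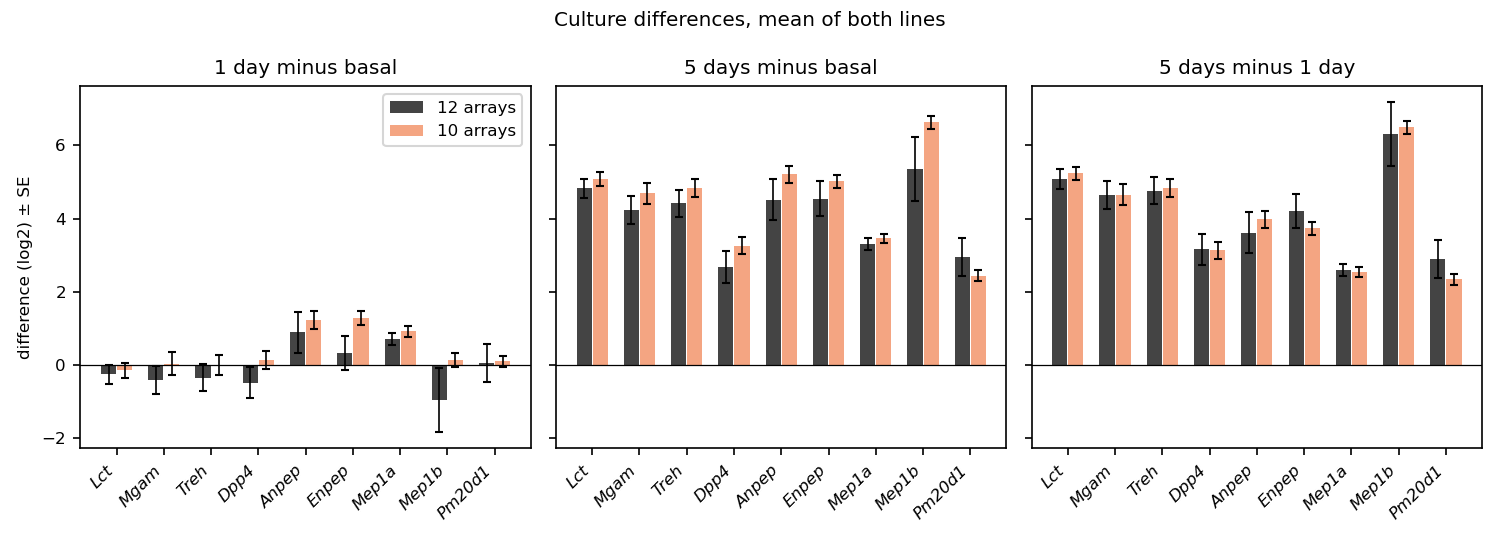
Difference between cultures for each gene (log2, vertical axis), averaged over both lines, with bars of 1 SE from the limma fit, for all 12 arrays (dark) and for the 10 arrays without the pair that goes against its label (light). All 9 genes are above 0 in both comparisons that hold 5 days, by 2.34 or more, whereas the differences at 1 day lie between -0.95 and 1.29.

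The first day of aggregation gave much smaller changes. With all arrays Mep1a alone passed the test against basal culture, with a rise of 0.71 ± 0.17 (adjusted p = 0.0252), that is 1 of 9 genes, against 5.25% of all genes upward and 8.80% downward. It did not pass without basal 9A1 replicate 2, or once any array of 14B3 was left out. With 10 arrays 3 of 9 rose, against 17.8% of all genes: Anpep by 1.23 ± 0.26 (adjusted p = 0.00589), Enpep by 1.29 ± 0.19 (adjusted p = 0.00115) and Mep1a by 0.92 ± 0.14 (adjusted p = 0.00133). The other 6 genes differed by -0.15 to 0.14 there. With all arrays, all 4 arrays at 1 day lay above all 4 basal arrays for 0 of 9 genes, against 5.37% of all genes. Without the pair set apart they separated for Anpep (lowest 1 day 6.01, highest basal 5.78), Enpep (4.48, 4.46) and Mep1a (6.50, 5.92) only. The share of all genes was not counted for that set of arrays, so this separation only describes these genes. Both Enpep values lie under 5, close to the background of the array. Without basal 9A1 replicate 2, Dpp4 and Mep1b passed downward, by 1.06 and 2.22, values that rest on the single basal 9A1 array set apart above. From 1 to 5 days all 9 genes rose, by 2.60 (Mep1a) to 6.31 (Mep1b), against 11.7% of all genes upward, and with 10 arrays against 18.0%. This comparison shares its 5 day arrays with the one above.

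At 5 days both 9A1 arrays lay above both 14B3 arrays for 9 of 9 genes, against 20.2% of all genes. With all 12 arrays 4 of 9 passed the test between the lines at 5 days, all higher in 9A1, against 0.222% of all genes (35 genes). Enpep was higher by 6.86 ± 0.67, a 116-fold difference (adjusted p = 0.00293), which ranked 2 among all genes. Mep1a was higher by 3.71 ± 0.24, or 13.1-fold (adjusted p = 0.000409), Pm20d1 by 5.35 ± 0.73, or 40.8-fold (adjusted p = 0.0245), and Lct by 2.51 ± 0.38, or 5.71-fold (adjusted p = 0.0393). Mep1a passed with any 1 array left out and Enpep with any but 5 day 14B3 replicate 2. Lct and Pm20d1 still passed when a basal or 1 day array of 9A1 was left out, and missed the threshold when a 5 day array of 9A1 or any array of 14B3 was.

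The other 5 genes missed the threshold with all arrays. Their differences were 2.57 ± 0.61 for Dpp4, 2.34 ± 0.54 for Mgam, 1.75 ± 0.52 for Treh, 1.61 ± 1.23 for Mep1b and 1.02 ± 0.80 for Anpep. None of the arrays set apart is a 5 day array, so these differences are the same with 10 arrays, and only the estimate of the spread changes. With 10 arrays 8 of 9 passed, against 2.01% of all genes, with adjusted p from 2.35e-06 (Enpep) to 0.0189 (Treh). Anpep did not (1.02 ± 0.30, adjusted p = 0.127). By size the line differences at 5 days fell in the order Enpep, Pm20d1, Mep1a, Dpp4, Lct, Mgam, Treh, Mep1b and Anpep, and the neighbours from Dpp4 to Anpep differ by less than the SE of Dpp4.

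**Figure D3:**
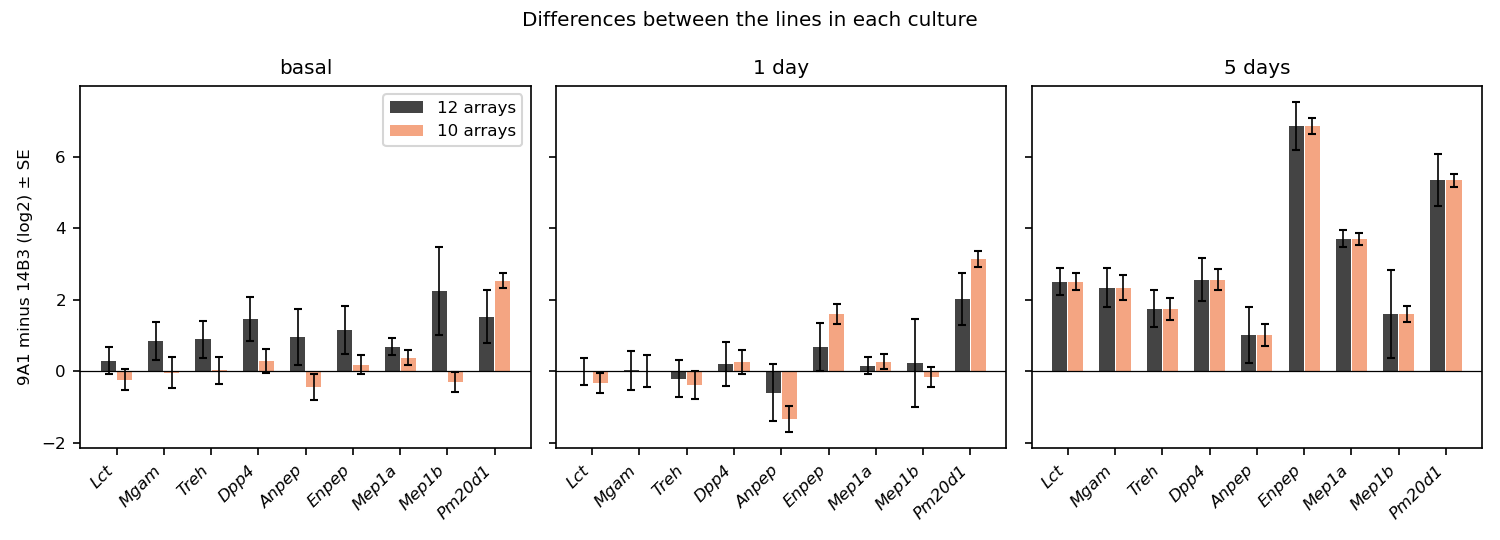
Difference between line 9A1 and line 14B3 for each gene (log2, vertical axis) in the basal, 1 day and 5 day cultures, with bars of 1 SE from the limma fit, for 12 arrays (dark) and 10 arrays (light). At 5 days all 9 differences are above 0, from 1.02 (Anpep) to 6.86 (Enpep), and the basal difference of Mep1b goes from 2.26 to -0.29 when the 2 arrays are left out.

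In the earlier cultures 0 of 9 genes passed between the lines with limma and all arrays, in basal culture (0% of all genes upward, with 2 of the 9 at an unadjusted p under 0.05) or at 1 day (0% of all genes, with 1 of the 9). With 10 arrays Pm20d1 was higher in 9A1 in basal culture, by 2.54 ± 0.22 (adjusted p = 0.00104, 1.18% of all genes upward). At 1 day Pm20d1 was higher by 3.14 ± 0.22 (adjusted p = 0.000277) and Enpep by 1.61 ± 0.27 (adjusted p = 0.0149), 2 of 9 genes against 2.97% of all genes. Without basal 9A1 replicate 2 alone, Mgam, Treh, Dpp4, Anpep, Mep1a and Mep1b passed in basal culture, each from the remaining array that goes against its line label. Averaged over the cultures, Enpep (2.90 ± 0.39, adjusted p = 0.0286), Mep1a (1.52 ± 0.14, adjusted p = 0.00797) and Pm20d1 (2.97 ± 0.42, adjusted p = 0.031) were higher in 9A1, 3 of 9 genes against 0.139% of all. With 10 arrays Lct (0.65 ± 0.16) and Dpp4 (1.04 ± 0.19) passed too, 5 of 9 against 5.99%. On this average Lct, Mgam, Treh, Dpp4 and Mep1b passed too without basal 9A1 replicate 2. Enpep and Pm20d1 kept their calls only when a basal or 1 day array of 9A1 was left out. Mep1a lost its call without basal 14B3 replicate 2, 1 day 14B3 replicate 1 or either 5 day array of 14B3. The share of all genes was not set beside the fits with 1 array left out. They show only how the calls depend on single arrays.

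Whether the lines differed in their rise was tested as an interaction. From basal culture to 5 days, Mep1a rose more in 9A1 by 3.02 ± 0.34 (adjusted p = 0.028), 1 of 9 genes against 0.0380% of all. The point estimate of Enpep was larger, 5.70 ± 0.95, the highest of all genes tested, but missed the threshold (adjusted p = 0.154), as did Pm20d1 with 3.82 ± 1.03 (adjusted p = 0.759). With 10 arrays 4 of 9 passed, against 0.583% of all genes: Enpep by 6.67 ± 0.35 (adjusted p = 0.000319), Mep1a by 3.33 ± 0.26 (adjusted p = 0.0015), Pm20d1 by 2.81 ± 0.29 (adjusted p = 0.00454) and Lct by 2.75 ± 0.37 (adjusted p = 0.0181). Mep1a did not pass without any 1 of the 14B3 arrays or the 5 day arrays of 9A1. It passed together with Enpep when basal 9A1 replicate 1 was left out, and with Enpep and Pm20d1 when replicate 2 was. In that last fit Mep1b passed in the opposite direction, at -3.20.

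The rise from 1 to 5 days, a comparison added after the data were seen because it leaves out the basal arrays, differed by 3.55 ± 0.34 for Mep1a (adjusted p = 0.00895; 1 of 9 genes against 0.0380% of all) and by 6.18 ± 0.95 for Enpep (adjusted p = 0.131). Mep1a missed the threshold without any 1 of the 1 day and 5 day arrays of 14B3, and Enpep passed it without either basal array of 9A1 or 1 day 9A1 replicate 1. With 10 arrays Enpep (5.24), Mep1a (3.44), Lct (2.84) and Pm20d1 (2.21) passed, 4 of 9 against 0.887%. In the first day 0 of 9 genes differed between the lines in their response by limma, with 12 arrays (0% of all genes called; 0 of the 9 at an unadjusted p under 0.05) and with 10 (0.00634% of all genes upward; 1 of the 9 at an unadjusted p under 0.05). Without basal 9A1 replicate 2, Dpp4 and Mep1b passed, both with values below 0.

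**Figure D4:**
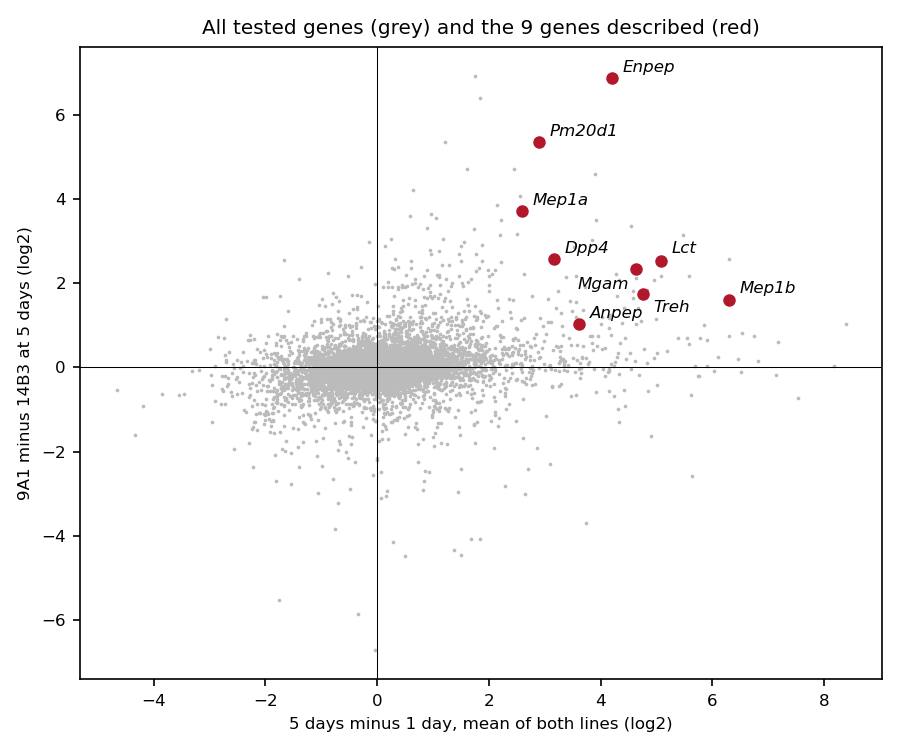
Each point is 1 of the 15781 tested genes, by its difference between 5 days and 1 day averaged over the lines (log2, horizontal axis) and its difference between 9A1 and 14B3 at 5 days (log2, vertical axis); the 9 genes described are red. Among these 9, Enpep, Pm20d1 and Mep1a lie highest, and Mep1b lies farthest to the right, with a rise of 6.31 and a line difference of 1.61.

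Over the 12 arrays the genes varied together to different degrees, which is a description over arrays that share 3 cultures and 2 lines. Each gene was set against the mean of the other 8. Pearson's r was 0.979 for Mgam, 0.971 for Lct, 0.970 for Dpp4 and 0.966 for Treh, and the lowest was 0.779 for Pm20d1. The closest pair was Lct and Mgam with 0.989, and Enpep followed Mep1a (0.977) more closely than it followed Treh (0.837). The genes outside the list with the profile most like the mean of the 9 were Naaladl1 (r = 0.985), Tdp2 (0.982), Gask1b (0.981), Dpyd (0.981) and Micalcl (0.981). Naaladl1 is itself a peptidase related to glutamate carboxypeptidase, and Dpyd, which starts pyrimidine breakdown, lay at 11.74 and 11.99 in 9A1 and 9.82 and 8.76 in 14B3 at 5 days.

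Other apical hydrolases also rose at 5 days. Of 18 listed, 15 were measured and 13 tested, and 8 rose and 0 fell against basal culture, where 16.9% of all genes rose, with a median difference of 1.92. The largest rises were of Alpi, intestinal alkaline phosphatase (5.58 ± 1.18, adjusted p = 0.00543), Mme, neprilysin (4.45 ± 0.38, adjusted p = 7.46e-05), and Asah2, neutral ceramidase (3.99 ± 0.41, adjusted p = 0.000177). Alpi lay at 13.80 and 13.81 in 9A1 and 13.90 and 13.95 in 14B3 at 5 days, so the lines differed by -0.12 ± 1.66 there. At 5 days 0 of the 13 passed between the lines by limma with 12 arrays, against 0.222% of all genes upward. There 3 were higher in 9A1 at an unadjusted p under 0.05: Mme by 1.83 ± 0.54, Naaladl1 by 1.82 ± 0.42 and Dpep1 by 2.86 ± 0.67. The calls of Mme, Naaladl1 and Dpep1 depended on the arrays used: they missed the threshold with 12 arrays and not with 10. A line difference at 5 days was thus not particular to the 9 genes described. With 10 arrays 10 rose against basal culture, and 24.6% of all genes did.

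Of 13 transporters that take up sugars, peptides and amino acids, 12 were tested, and 8 rose and 0 fell (8 and 0 with 10 arrays), against 16.9% of all genes upward (24.6% with 10 arrays), with a median difference of 1.52. Slc3a1 and Slc7a9, the subunits of the cystine transporter, rose by 5.75 ± 0.91 (adjusted p = 0.00128) and 4.79 ± 0.89 (adjusted p = 0.00295), and Slc6a20a, an imino acid transporter, by 4.63 ± 0.70 (adjusted p = 0.00103). Slc6a20a lay at 11.45 and 11.22 in 9A1 and 8.28 and 8.12 in 14B3 at 5 days, a line difference of 3.14 ± 0.99 that passed with 10 arrays and not with 12 (adjusted p = 0.569). Slc5a1, the sodium and glucose transporter, differed from basal culture by 0.27 (adjusted p = 0.212).

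Of 12 regulators of gut and liver epithelium 9 were tested, and 6 rose and 0 fell at 5 days (7 and 0 with 10 arrays), against 16.9% of all genes upward (24.6% with 10 arrays). Hnf4g rose by 4.61 ± 0.58 (adjusted p = 0.000422), Maf by 3.13 ± 0.25 (adjusted p = 4.96e-05) and Isx, an intestinal homeobox factor, by 1.57 ± 0.39 (adjusted p = 0.0122). Cdx2 lay at 9.92 to 10.25 on the 4 basal arrays and at 10.47 to 11.20 at 5 days, a rise of 0.84 ± 0.16 (adjusted p = 0.00344 by limma). Cdx2 differed between the lines by -0.15 ± 0.23 at 5 days. By limma with all arrays 0 of the 9 regulators passed between the lines there, against 0.222% of all genes upward. Gata5 was higher in 9A1, at 7.6 and 7.5 against 5.7 and 5.7 (1.90 ± 0.79). Gata4 was lower in 9A1, at 8.3 and 8.3 against 9.0 and 8.9 (-0.66 ± 0.69). Isx was lower too, at 6.6 and 7.9 against 8.6 and 8.5 (-1.29 ± 0.55). The calls of Gata5 and Gata4 depended on the arrays used: they missed the threshold with 12 arrays and not with 10. Isx missed it with both.

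Relatives of the enzymes that work outside the brush border were followed as well. Of 25 listed, 18 were tested, and 8 rose and 0 fell at 5 days, against 16.9% of all genes upward, with a median difference of 0.36. With 10 arrays 11 rose, against 24.6% of all genes, and Dpp9 fell. Cndp1, a secreted carnosinase of the same family as Pm20d1, rose by 2.06 ± 0.14 (adjusted p = 3.32e-05), Ganc, a cytosolic glucosidase, by 1.52 ± 0.21 (adjusted p = 0.000668), and Klb, a coreceptor with the fold of lactase, by 1.45 ± 0.40 (adjusted p = 0.0192). Cndp1 was also higher in 9A1 at 5 days, by 2.22 ± 0.20 (adjusted p = 0.00234), at 7.20 and 7.09 against 4.72 and 5.14.

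Markers of enterocytes and hepatocytes rose at 5 days as well. Of 8 enterocyte markers 7 rose, with all arrays (against 16.9% of all genes upward) and with 10 (against 24.6%), and the mean of the 8 was 12.48 and 12.60 in 9A1 and 12.45 and 12.38 in 14B3, after 9.59 to 10.51 at 1 day. No enterocyte marker passed between the lines at 5 days by limma with 12 or with 10 arrays (0 and 1 at an unadjusted p under 0.05), with a median difference of 0.07. The 7 that rose lay between 12.67 and 14.36 at 5 days, toward the top of the scale (the highest value on an array was 14.49 to 14.69), and Slc5a1 lay between 5.45 and 5.65. Of 7 hepatocyte markers 4 rose (6 with 10 arrays); Alb rose by 4.99 ± 1.23 (adjusted p = 0.0114), and the mean of the 7 was 12.24 and 10.89 in 9A1 and 11.43 and 10.94 in 14B3, after 8.37 to 9.55 at 1 day. With all arrays 2 of 6 intestinal secretory markers rose, and of 5 bile duct markers 2 rose and 1 fell, against 16.9% of all genes upward. Of 5 kidney proximal tubule markers, tested because these enzymes also belong to that epithelium, 1 rose. The kidney marker Aqp1 (0.80 ± 0.63) and the bile duct marker Sox9 (-0.83 ± 0.56) did not pass there, and their calls depended on the 2 arrays set apart. Of 6 mesenchymal, 2 blood and 4 endothelial markers 0 rose by limma (0 at an unadjusted p under 0.05), and 1, 1 and 0 fell. Over the 12 arrays the list means spanned 5.42 to 6.70 (secretory), 9.06 to 10.95 (bile duct), 6.09 to 7.32 (kidney tubule), 6.81 to 7.38 (mesenchyme), 4.96 to 5.58 (blood) and 4.94 to 5.42 (endothelium). Of the secretory markers, Tff3 was higher in 9A1 than in 14B3 at 5 days by 2.76 ± 0.48 and Spink4 by 1.34 ± 1.01. These 2 missed the threshold with 12 arrays and not with 10. The other secretory markers tested differed by -0.01 (Chga) to 0.11 (Muc2). At 5 days 3 of the 5 endothelial markers measured lay under 5 on both arrays of each line. Their part in the rise of the enzymes was not tested.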

How the data were processed

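The arrays measured total RNA of 12 cultures. Per the submitters' processing notes the authors deposited log2 probe set levels summarised by RMA in R 2.3.1, which subtracts background and gives all arrays a common distribution; differences in total RNA are not seen. Array medians were 6.09 to 6.24. Depth does not apply; 2 arrays a group limit the precision.

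Of 45101 probe sets 34945 name 1 gene, 932 several and 9160 none, 64 are controls, and 34741 matched RefSeq (GRCm38.p6) by Entrez identifier. Testing covered the 15781 genes that reached a log2 level of 5 on 2 or more arrays, with limma 3.58.1 in R 4.3.3 (6 group means, moderated variance with trend, Benjamini-Hochberg adjustment over all tested genes). Mgam and Dpp4 reached that level on 5 arrays, those at 5 days and basal 9A1 replicate 1, and Cndp1 reached it only at 5 days. These genes entered the test through the arrays where they are high. The fit was tested on simulated data. The members, the other gene lists and the markers were chosen with earlier results of these data known. Named genes are all members, Cdx2, the 3 called genes of each list with the largest difference between 5 days and basal culture, and the 5 with the profile most like the mean of the members; others named were chosen after their values were seen. A gene of the rule and a promoter motif that was searched are not reported here. Alternatives were no filter, a filter at 6, the mean of probe sets, median centring, quantile normalisation, array weights, a replicate block, no variance trend, each array left out, and both arrays of the label check left out, a pair known from earlier results. The genes of that check, the gap of 0.5, the list counts with 10 arrays, the interaction from 1 to 5 days and the promoter motifs were chosen after seeing the data. The labels give no batch. The replicate number was not taken as a pairing (see the closing section). Promoter windows are from RefSeq.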

Additional observations from a re-analysis of the deposited data

Results flagged for a closer look

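In basal culture the array labelled 9A1 replicate 1 lay far from the other 3 arrays for Mgam (5.86), Treh (6.78), Dpp4 (7.06), Enpep (6.39) and Mep1b (9.46), each time as the highest. For Anpep at 1 day, 9A1 replicate 1 was the lowest of 4 arrays, at 6.01. This array goes with its line label, while 9A1 replicate 2, which goes against it, lay at 7.46, beside 14B3 at 7.34 and 7.33. Of 27 sets of 4 arrays examined, 6 held such an array. The chance rate of about 1 in 20 holds for independent sets from a single group. These sets repeat the same arrays over genes that vary together, and each set pools both lines. All cases but that of Anpep come from the array labelled basal 9A1 replicate 1. The count therefore cannot be judged against that rate, and it only describes these arrays.

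The rise of Mep1a differed between the lines, by 3.02 from basal culture to 5 days and by 3.55 from 1 to 5 days, both larger in 9A1.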

How the results depend on the processing

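Each result was recomputed under 21 alternatives. All 9 genes passed upward at 5 days, against basal culture and against 1 day, under every one. Weighting the arrays gave 0 genes passing at 1 day, 7 between the lines at 5 days, and 2 in each of the interactions that end at 5 days. Leaving out both arrays that go against their label gave 3 at 1 day, 5 for the lines on average, 1, 2 and 8 for the lines in the basal, 1 day and 5 day cultures, and 4 in each of the same interactions. Replicate numbers were not taken to pair the samples, which needed every correlation over 0.1: over 15 pairs of groups the correlations of their deviations ran from -0.303 to 0.499, with 5 over 0.1. The replicate block gave 2 genes between the lines at 5 days (Enpep and Mep1a; Lct and Pm20d1 each had an adjusted p of 0.0548 by limma) and 0 in the interaction from basal culture to 5 days (Mep1a, adjusted p = 0.0569 by limma). With 1 array left out the counts ran from 0 to 2 for 1 day against basal culture, 0 to 8 for the lines on average, 0 to 6, 0 to 0 and 1 to 6 for the lines in the 3 cultures, and 0 to 2, 0 to 4 and 0 to 2 for the interactions at 1 day, at 5 days and from 1 to 5 days. These counts show how the calls depend on single arrays, and the share of all genes in the same fits was not set beside them. Changes of sign were limited to differences that had not passed with all arrays. With 1 array left out, the 1 day difference ran from -0.521 to 0.010 (Lct), -0.839 to 0.050 (Mgam), -0.776 to 0.090 (Treh), -1.06 to 0.104 (Dpp4), -0.151 to 0.817 (Enpep), -2.22 to 0.330 (Mep1b) and -0.506 to 0.610 (Pm20d1), with the positive end of Lct, Mgam, Treh, Dpp4, Enpep and Mep1b from the fit without basal 9A1 replicate 1. Enpep was -0.137 without 1 day 9A1 replicate 1, and Pm20d1 was -0.452 without basal 9A1 replicate 1, -0.018 as the mean of its probe sets and -0.026 after quantile normalisation. Without both arrays Mgam was 0.040, Treh 0.001, Dpp4 0.132 and Mep1b 0.139. The average line difference of Anpep ran from -0.004 to 0.923, and was -0.246 without both. The interaction at 5 days ran from -0.009 to 1.72 (Treh), -0.052 to 2.28 (Dpp4), -1.34 to 1.45 (Anpep, with -0.067, -0.229 and -0.402 without basal 14B3 replicate 1, 5 day 9A1 replicate 2 and 5 day 14B3 replicate 1) and -3.20 to 1.90 (Mep1b, 1.90 also without both). The cause was not tested. Centring each array on its median moved the median of all genes by over 0.1 in no comparison.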
